A study of Mus musculus with 6 samples.

Results

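Tendon-like nuclei were 164 of the 13551 nuclear barcodes recorded from the periosteum of the mouse tibia before and after fracture. A nucleus was a member when its unique molecular identifiers (UMIs, counts of captured RNA molecules) for Tnmd, Mkx, Thbs4 and Fmod summed to at least 4, with at least 2 of the 4 genes detected. The rule also required no UMI of the immune gene Ptprc or the endothelial gene Pecam1, under 1% of UMIs from 4 muscle genes and fewer than 5 UMIs from 5 cartilage genes. It was applied to the 8073 barcodes with 200 to 5000 genes, under 2% mitochondrial UMIs and under 1.5% ribosomal protein UMIs, and 3396 of these also met the limits on immune, endothelial, muscle and cartilage genes and are called eligible below.

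The study sequenced nuclei of C57BL6 mice (C57BL/6ScNj in the study's methods) aged 12 weeks in 6 libraries. The methods state that both sexes were used, without the sex of each pool. Both uninjured libraries were each made from the tibial periosteum of 4 pooled mice. The fractured libraries, 2 at day 3, 1 at day 5 and 1 at day 7 after an open, non-stabilized fracture of the tibia, were each made from the injured periosteum and hematoma or callus of 4 to 9 pooled mice. Nuclei were sorted on a DNA dye, and no marker of tendon was used in the sort. Because the mice of a library were pooled, the library was the unit of comparison, and values of single mice could not be recovered. Total UMIs ran from 1499281 to 29796296 per library, and uninjured replicate 1 was the shallowest. The libraries had been counted with different software versions and gene annotations, so changes of single genes over time are given only for pairs of libraries that shared a software version, while shares and summed levels are listed for all 6 libraries and mix the versions.

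Tendon cells, or tenocytes, are fibroblasts that lay down aligned collagen fibres which carry force from muscle to bone. The transcription factors Scleraxis (Scx) and Mohawk (Mkx) act in their formation. Tenomodulin (Tnmd) is a membrane glycoprotein that is typical of mature tenocytes, thrombospondin 4 (Thbs4) is a matrix protein found at tendon and its junction with muscle, and fibromodulin (Fmod) is a small leucine-rich proteoglycan that regulates collagen fibril growth. Tendons and ligaments insert on the tibia, and their fibres pass through the periosteum.

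Members were unevenly spread over the libraries. None was found in uninjured replicate 1, 26 in uninjured replicate 2, 4 in day 3 replicate 1, 17 in day 3 replicate 2, 100 at day 5 and 17 at day 7. The day 5 library therefore held 61.0% of all members. Mkx was found in 135 of the 164 nuclei, Thbs4 in 130, Fmod in 78 and Tnmd in 65. The most frequent pair was Mkx with Thbs4, found together in 104 nuclei. Of the members, 100 had 2 of the 4 genes, 48 had 3 and 16 had all 4. These genes chose the nuclei, so their levels are given only as a description.

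The members differed in which rule gene carried them. In CPM (UMIs of a gene summed over the members of a library, per 1000000 of their UMIs), Mkx was 458 in uninjured replicate 2, 804 in day 3 replicate 1, 539 in day 3 replicate 2, 544 at day 5 and 694 at day 7. Thbs4 was 1042, 3017, 734, 759 and 867 CPM in the same order. Thbs4 was thus the most abundant rule gene in each of these libraries, and its value in day 3 replicate 1 came from 4 nuclei. Tnmd was 60.0, 50.3, 46.2, 204 and 191 CPM and Fmod 475, 50.3, 118, 139 and 104 CPM. CPM of different genes in 3′ counts are read without regard to gene length, and a long gene with intronic reads can yield more UMIs, so the order of genes is that of captured UMIs.

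The rule genes lie on the X chromosome (Tnmd, positions 133850980 to 133865577, plus strand), chromosome 13 (Thbs4, 92751590 to 92794818, minus strand) and chromosome 1 (Fmod, 134037254 to 134048277, plus strand) of the mouse build GRCm38. Members just inside the threshold numbered 34, with exactly 4 UMIs. The summed UMIs of the members ran from 4 to 76 with a median of 7. Just outside, 38 eligible nuclei had exactly 3 UMIs from at least 2 of the genes, and 65 had at least 4 UMIs but of only 1 gene. A further 43 nuclei met the rule except for the limit on cartilage genes, 41 of them at day 5 and 2 at day 7. The rule genes were also found outside the members. Among the 1995 other stromal nuclei described below, Thbs4 was found in 12.98%, Mkx in 12.1%, Fmod in 5.11% and Tnmd in 2.76%. Among 507 nuclei with cartilage genes, Mkx was found in 25.6%, Fmod in 23.7%, Thbs4 in 7.89% and Tnmd in 4.73%, and in the 263 of these at day 5 Fmod was in 40.3% and Mkx in 34.6%. Among the 1284 nuclei with at least 2 UMIs of Ptprc, Thbs4 was found in 6.93%, Mkx in 3.19%, Fmod in 2.49% and Tnmd in 0.857%, and among the 278 nuclei with at least 5% of UMIs from muscle genes the shares ran from 0.360 to 1.80%. The rule genes were thus most frequent, outside the members, in the cartilage-gene and other stromal nuclei.

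The share of eligible nuclei that met the rule was 0% in uninjured replicate 1, where 0 of 280 nuclei allows a share of up to 1.07% (3 counts of the total, with an exact upper limit of 1.31%). It was 4.38% in uninjured replicate 2 (exact Clopper-Pearson 95% interval 2.88 to 6.36%), 1.55% in day 3 replicate 1 (0.424 to 3.92%), 4.61% in day 3 replicate 2 (2.71 to 7.27%), 8.45% at day 5 (6.92 to 10.2%) and 2.39% at day 7 (1.40 to 3.80%). In both replicate pairs 1 library was higher than the other, and the intervals of the day 3 pair overlapped. The uninjured pair also differed in make-up. Other stromal nuclei, described below, were 40 of the 280 eligible nuclei in uninjured replicate 1 and 309 of 593 in uninjured replicate 2. A share of eligible nuclei is thus not a share of stromal nuclei. The means were 2.19% ± 3.10 (SD, n = 2) in uninjured and 3.08% ± 2.16 (SD, n = 2) in day 3 libraries, and with 2 libraries against 2 an exact permutation test cannot give a p below 0.333.

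Depth moved with these shares. Members were deep nuclei, with median UMIs of 5243 in uninjured replicate 2, 13304 in day 3 replicate 2, 6277.5 at day 5 and 3421 at day 7, against 3598, 3175.5, 2900 and 1557 in the other stromal nuclei described below. When each eligible nucleus with at least 1000 UMIs was reduced to 1000 UMIs and the expected chance of still showing at least 2 of the 4 genes was summed, the share was 0%, 2.85%, 0.662%, 1.98%, 4.26% and 2.53% in uninjured replicates 1 and 2, day 3 replicates 1 and 2, day 5 and day 7. The day 5 value was still the highest, and its interval of 3.05 to 5.70% overlapped that of uninjured replicate 2, at 1.58 to 5.00%. These intervals rest on sums rounded to whole nuclei, and the limit of 4 UMIs was not applied. Nuclei under 1000 UMIs were left out, among them 132 of 280 in uninjured replicate 1 and 332 of 712 at day 7. In day 3 replicate 2, the limit of 5000 genes per barcode removed 12 further nuclei that otherwise met the rule, which would have raised the members there from 17 to 29. The summed level of the 4 rule genes over members and other stromal nuclei together, which needs no call for each nucleus, was 102 CPM in uninjured replicate 1, 271 in uninjured replicate 2, 398 in day 3 replicate 1, 330 in day 3 replicate 2, 453 at day 5 and 311 at day 7. Fewer tendon-like nuclei in a pool and less of these RNAs in each nucleus cannot be told apart in such a sum.

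**Figure D1:**
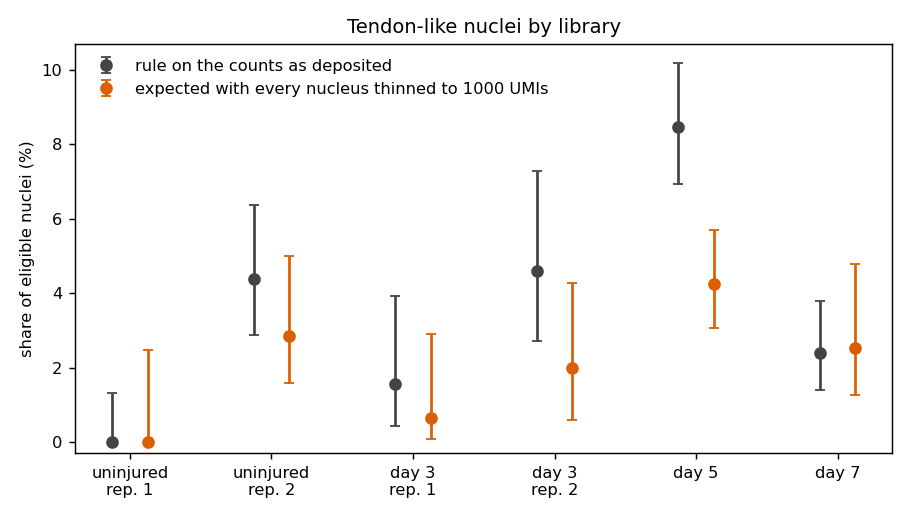
Share of eligible nuclei that met the tendon rule in each of the 6 libraries, in percent, as written and at an equal depth of 1000 UMIs, with exact 95% intervals that cover counting error only. The day 5 library stood highest at 8.45% as written and 4.26% at equal depth, and uninjured replicate 1 was at 0.

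To ask what else distinguished these nuclei, UMIs were summed within each library over members and over other stromal nuclei, defined as eligible non-members with at least 4 UMIs from at least 2 of Col1a1, Col1a2, Col3a1 and Col6a3. There were 1995 such nuclei, between 40 and 863 per library. Members did not have to meet this collagen limit. Both sums were compared with edgeR's quasi-likelihood test, with the library as a block, in the 4 libraries with at least 10 members (uninjured replicate 2, day 3 replicate 2, day 5 and day 7, 160 members in all). The rule genes, the limiting genes and the collagens that define the comparator were left out. Of 8079 genes tested, 45 were higher in the tendon-like nuclei (0.557% of those tested) and 38 were lower (0.470%), at a Benjamini-Hochberg adjusted p under 0.05. The log2 differences ran from 0.83 to 2.76 for the higher genes and from -4.62 to -0.93 for the lower genes. All 4 libraries had the same direction for 40 of the 45 and for 35 of the 38. The counts rested on single libraries: without day 7 the test called 9 higher and 13 lower, without day 3 replicate 2 it called 14 and 14, and without uninjured replicate 2 it called 78 and 79. With no library block it called 0 genes in either direction, with 264 at an unadjusted p under 0.05 (723 with the block).

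The 12 higher genes with the largest difference among those above 50 CPM and higher in every library were Kctd8, Sema3a, Adam23, Frem1, Kctd16, Itga8, Zfp185, Nalcn, Scube2, Dgkb, Ccser1 and Cacnb2. Sema3a encodes a secreted guidance cue of the semaphorin family. Its level in the tendon-like nuclei was 704 CPM in uninjured replicate 2, 92.3 in day 3 replicate 2, 483 at day 5 and 364 at day 7, against 124, 86.7, 75.3 and 74.8 in the other stromal nuclei. Sema3a was several-fold higher in 3 of these libraries, and in day 3 replicate 2 the ratio was 1.06 (conditional exact 95% interval 0.609 to 1.76, counting error only). The log2 difference was 2.06 (SE 0.33, edgeR adjusted p = 0.0078). The gene lies on chromosome 5, positions 13125414 to 13602565 on the plus strand.

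Cacnb2, the beta 2 subunit of voltage-gated calcium channels, was at 2225 CPM in the uninjured members, 508 at day 3 replicate 2, 509 at day 5 and 555 at day 7, against 453, 158, 252 and 160 in the other stromal nuclei. Members were above the comparator in each library, by 2.02-fold (1.77 to 2.31) to 4.91-fold (4.34 to 5.55), and the log2 difference was 1.71 (SE 0.22, edgeR adjusted p = 0.0022). Nalcn, a sodium leak channel, was at 535, 20.5, 84.6 and 191 CPM against 109, 11.6, 33.6 and 41.8. The 20.5 CPM of day 3 replicate 2 rested on 4 UMIs.

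Adam23, a catalytically inactive adhesion protein of the disintegrin family, was at 125 CPM in uninjured replicate 2, 144 in day 3 replicate 2, 121 at day 5 and 278 at day 7, against 38.3, 39.5, 25 and 62.1 in the other stromal nuclei. The ratios were 3.27, 3.64, 4.83 and 4.47, and the lower limit of each exceeded 1. The log2 difference was 2.03 (SE 0.24, edgeR adjusted p = 0.0012). Ccser1, a gene spanning chromosome 6 from 61180324 to 62382865, was at 338, 241, 356 and 278 CPM against 84.7, 66.6, 116 and 95.1, with a log2 difference of 1.79 (SE 0.20, edgeR adjusted p = 0.0012).

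Several named genes rested in part on few nuclei. Sema3a and Dgkb were each found in 55 of the 160 members tested. Over the 4 libraries, 1 nucleus held 19.5% of the UMIs of Sema3a, and 1 nucleus held 21.2% of those of Dgkb. Kctd8, an auxiliary subunit of GABA-B receptors, had the largest log2 difference (2.76, SE 0.39, edgeR adjusted p = 0.0036). All 46 of its UMIs in day 3 replicate 2 came from 1 nucleus, and it was found in 2 members of uninjured replicate 2, 13 at day 5 and 7 at day 7. Its levels were 27.3, 236, 56.4 and 399 CPM against 2.47, 15.5, 20.4 and 52.0. Itga8, the integrin alpha 8 subunit, was at 507 CPM in uninjured replicate 2, and 83.9% of those UMIs came from 1 nucleus. In the other 3 libraries Itga8 was between 34.7 and 87.8 CPM in members and between 11.4 and 27.2 CPM in the comparator. Dgkb, a diacylglycerol kinase, was at 720, 231, 351 and 260 CPM against 592, 55.0, 55.9 and 48.2. The ratio of Dgkb was 1.22 (1.01 to 1.46) in the uninjured library and 4.20 to 6.28 in the fractured libraries, a difference that was not tested.

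**Figure D2:**
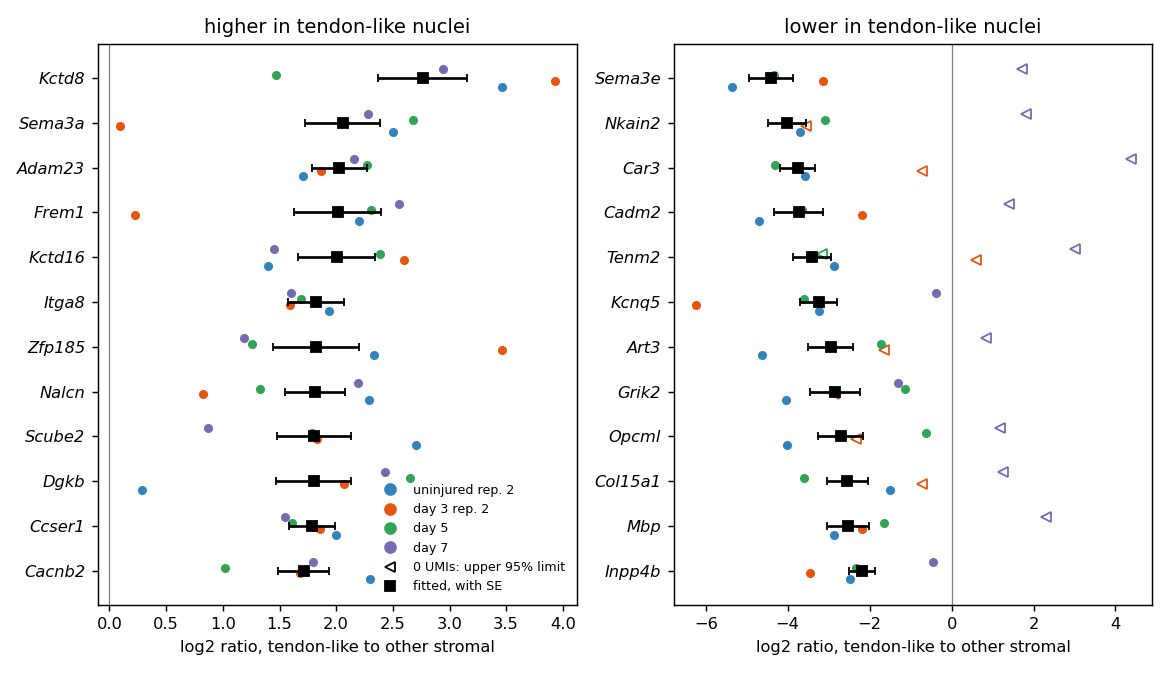
Log2 ratio of the level in tendon-like to that in other stromal nuclei for the 12 named higher genes and the 12 named lower genes, with 1 circle per library, an open triangle at the upper 95% limit where members had 0 UMIs, and a black square with its SE for the fitted difference. By the rule that chose them, the circles of the higher genes lie right of 0 and those of the lower genes left of 0, while several upper limits at day 7 lie right of 0.

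Further called genes are named here after their values were seen. Abi3bp, a matrix-binding protein, was at 2945 CPM in uninjured replicate 2, 1749 in day 3 replicate 2, 3699 at day 5 and 3330 at day 7, against 1019, 558, 849 and 1750 in the other stromal nuclei. Itgbl1, a secreted integrin beta-like protein, was at 5073, 1206, 3891 and 4579 CPM against 1591, 392, 1804 and 2696. Both were found in most members (85.0% with Abi3bp and 91.0% with Itgbl1 at day 5), with log2 differences of 1.58 (SE 0.24, edgeR adjusted p = 0.0069) and 1.30 (SE 0.24, edgeR adjusted p = 0.018). Edil3, an integrin ligand, was at 780, 1057, 2086 and 2775 CPM against 231, 276, 1279 and 1607. P3h2, an enzyme that hydroxylates prolines of collagen, was at 545, 185, 257 and 278 CPM against 131, 87.5, 96.6 and 69.7. Members were above the comparator in each of the 4 libraries for these genes.

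Col11a1, a fibril collagen chain of cartilage and of growing tendon fibrils, was at 922 CPM in uninjured replicate 2, 1252 in day 3 replicate 2, 2674 at day 5 and 2255 at day 7, against 112, 346, 1589 and 1314. The ratio was 8.23 (6.64 to 10.2) in the uninjured library and 1.68 (1.59 to 1.78) at day 5. The log2 difference was 1.58 (SE 0.34, edgeR adjusted p = 0.040). Cilp, a matrix protein of cartilage and tendon, was above the comparator in 3 of the 4 libraries and was at 17.3 CPM (1 UMI) against 43.1 at day 7, with a log2 difference of 1.64 (edgeR adjusted p = 0.042).

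Among transcriptional regulators, 3 genes of the Eya family were higher. Eya1 and Eya2 belong to the 14 tendon transcription factors listed, of which 9 were tested, 2 were higher and 0 lower. In edgeR's test 4 of the 9 had an unadjusted p under 0.05. Their median log2 difference was 0.11 against -0.04 over all genes tested. Eya2 was at 458, 421, 281 and 208 CPM against 147, 68.2, 147 and 96.4, with a log2 difference of 1.62 (SE 0.27, edgeR adjusted p = 0.011). Eya1 was at 87.3, 87.2, 97.2 and 52.0 CPM against 30.9, 34.1, 35.2 and 16.5, a log2 difference of 1.51 (SE 0.28, edgeR adjusted p = 0.018). Eya4, which the list did not hold, was at 278, 939, 854 and 1179 CPM against 181, 352, 469 and 268. Eya proteins are transcriptional coactivators that also carry phosphatase activity.

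The label of the nuclei was checked on tendon markers that the rule did not use. Scx was close to its detection limit: 3 UMIs in uninjured replicate 2, 1 in day 3 replicate 2, 12 at day 5, each in a separate nucleus, and 0 at day 7. Scx was seen in 12.0% of the day 5 members and 3.48% of the other stromal nuclei there, and it was too sparse to test. Comp, a matrix protein of tendon and cartilage, was at 316, 195, 182 and 243 CPM against 117, 48.8, 161 and 124, above the comparator in all 4 libraries, yet it did not pass the test (log2 difference 1.11, edgeR adjusted p = 0.072). Col12a1, a collagen of tendon and periosteum, was at 578, 1344, 2034 and 1960 CPM against 399, 650, 1388 and 1230 (log2 difference 0.71, edgeR adjusted p = 0.12). Tnc had a log2 difference of -0.02 (edgeR adjusted p = 0.999) and changed sign with the settings. Kera was found in 5 members at day 5 and 1 in uninjured replicate 2. Chad, also set beforehand as a marker, was not among the genes tested. Its values in uninjured replicate 2 and day 3 replicate 2 are given below. Of the 3 outside markers that could be tested, 0 passed, with Comp and Col12a1 at an unadjusted p under 0.05, so the name tendon-like rests on the 4 genes of the rule.

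In the wider tendon lists few genes passed the test. Of 27 tendon matrix genes, 17 were tested, Col11a1 and Cilp were higher and Col5a3 lower, and the median log2 difference was 0.37. Of these 17 genes, 11 had a positive log2 difference. In edgeR's test 9 of the 17 had an unadjusted p under 0.05 in either direction, against 723 of 8079 over all genes tested. Col5a3, a collagen V chain, was at 60.0, 46.2, 84.6 and 34.7 CPM against 142, 160, 170 and 112. Of 15 small leucine-rich proteoglycans, 8 were tested and 0 passed (4 had an unadjusted p under 0.05), with a median of 0.58 that was the highest of the lists with at least 6 tested genes. Decorin (Dcn) was at 3016, 359, 345 and 451 CPM against 1593, 342, 236 and 282, with a log2 difference of 0.58 (edgeR adjusted p = 0.26), and biglycan (Bgn) had 0.73 (edgeR adjusted p = 0.14). Of the lists for muscle attachment (7 tested), hedgehog and enthesis genes (8), collagen processing (18), proteases (10), TGF-beta (16), BMP (12), FGF (6), mechanosensing (10) and immediate early genes (6), no gene passed the edgeR test, with between 1 and 3 genes of each at an unadjusted p under 0.05 and medians from -0.41 to 0.15. Adamts3, a procollagen-cleaving enzyme on the collagen list, was at a log2 difference of 1.74 (edgeR adjusted p = 0.14).

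**Figure D3:**
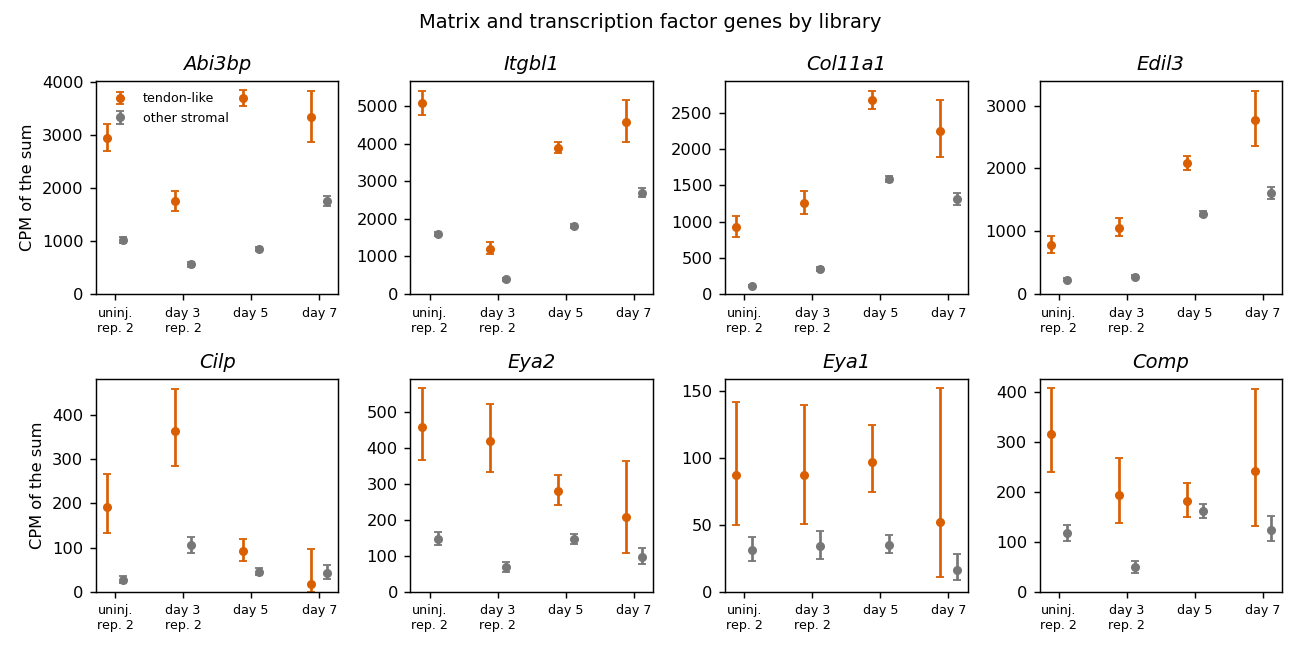
Levels in CPM, on linear axes that start at 0, of Abi3bp, Itgbl1, Col11a1, Edil3, Cilp, Eya2, Eya1 and Comp in tendon-like and other stromal nuclei of the 4 tested libraries, 1 point per library and population with 95% counting intervals. Abi3bp and Itgbl1 lie above the comparator in each library, Cilp lies below it at day 7 (17.3 against 43.1 CPM), and Comp did not pass the test.

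The 12 named lower genes were Sema3e, Nkain2, Car3, Cadm2, Tenm2, Kcnq5, Art3, Grik2, Opcml, Col15a1, Mbp and Inpp4b. Sema3e, another secreted semaphorin, was at 5.45, 5.13, 1.57 and 0 CPM in members (1, 1, 1 and 0 UMIs) against 224, 44.9, 31.8 and 21.6 in other stromal nuclei. In the members Sema3e was near 0 throughout, while Sema3a was higher than in the comparator. Its log2 difference was -4.40 (SE 0.54, edgeR adjusted p = 0.0014), a fitted value that depends on the prior count where members had 0 UMIs. Nkain2, a neuronal membrane protein, was at 21.8, 0, 4.70 and 0 CPM against 283, 224, 39.8 and 20.3. Car3, a carbonic anhydrase of fat and muscle, was at 38.2, 0, 1.57 and 0 CPM against 460, 32.5, 31.2 and 5.07. Kcnq5, a potassium channel, was at 32.7, 5.13, 21.9 and 121 CPM against 306, 391, 265 and 157, and all 7 of its day 7 UMIs came from 1 nucleus.

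Lower genes also included single members of the lists for other cell types. Rgs5, a pericyte marker, was at 10.9, 0, 1.57 and 0 CPM against 52.0, 27.9, 71.0 and 31.7 and was the only one of 8 tested pericyte and smooth muscle genes to pass (log2 difference -4.16, edgeR adjusted p = 0.0069). Mbp passed of 2 Schwann genes, Tenm2 of 2 perineurial genes, and 0 of 4 adipocyte genes (4 at an unadjusted p under 0.05), 0 of 6 myofibre genes (5) and 0 of 1 immune gene (1). No endothelial gene was abundant enough to test. Pi16, a marker of progenitor fibroblasts of the periosteum and the only call among 6 tested sheath and progenitor genes, was at 49.1, 5.13, 9.40 and 0 CPM against 248, 37.9, 31.5 and 12.7 (log2 difference -2.12, edgeR adjusted p = 0.017). Of those 6 genes, 5 had an unadjusted p under 0.05 in edgeR's test. Diaph3, which acts in cell division, was the only call among 10 tested proliferation genes (edgeR adjusted p = 0.044), and these 10 all had negative log2 differences with a median of -1.14.

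Markers of other cells were thus present in the comparator and moved with these calls. The summed level of the 8 Schwann genes was 964 CPM in the other stromal nuclei of uninjured replicate 2 and 30.4 to 105 CPM in the other 3 libraries, against 104 and 17.3 to 46.2 CPM in members. The 9 pericyte and smooth muscle genes summed to 1256 CPM there and 202 to 438 CPM elsewhere, against 1129 and 52.0 to 154 CPM in members. In the uninjured members, 98.8% of the 80 UMIs of the smooth muscle gene Myh11 came from 1 nucleus. Adipoq was at 0 in the members of each library. The part of these cell types in the calls was not tested beyond leaving out the nuclei that carried their markers. When comparator nuclei with other cell types' markers were left out, an alternative chosen after seeing the data, 53 genes were higher and 29 lower, and 12 of the 12 named higher genes and 6 of the 9 named lower genes still tested were called. Of 8 tested chondrogenic genes outside the rule, Col11a1 was higher and Sox5 lower, with a median log2 difference of 0.11 and 6 genes at an unadjusted p under 0.05. Of 8 osteogenic genes, 0 passed the edgeR test and 6 were at an unadjusted p under 0.05, 1 log2 difference was positive and the median was -0.86, against a median of -0.04 over all genes tested and 723 of 8079 genes at an unadjusted p under 0.05. Sox5, a transcription factor of chondrogenesis, was at 480, 436, 437 and 590 CPM against 1475, 723, 917 and 874.

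Depth was the other quantity that moved with membership. With the comparator limited to nuclei within the 10th to 90th percentile of the members' UMIs in the same library, 31 genes were higher and 24 lower, and 9 of the 12 named higher genes remained called. In that comparison 72 of the 83 called genes could be tested and 55 were called again. The comparator's median depth was then 4908, 7782.5, 4180 and 2935.5 UMIs in the 4 libraries, still below that of the members in each library, and the part of the remaining gap was not tested.

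Single libraries held further genes that separated the members there. In uninjured replicate 2 alone, 58 of 8750 genes with at least 20 UMIs in 1 of the sums (0.663%) were at least 4-fold higher in members than in other stromal nuclei and 166 (1.90%) at least 4-fold lower. Chad was at 142 against 6.80 CPM in that library, in 9 of 26 members and 3 of 309 other stromal nuclei, and Adamts3 was at 769 against 39.6 CPM. At day 5 the ratio of Adamts3 was 1.57 (1.35 to 1.83), at 349 against 222 CPM. Col8a1 was at 4009 against 451 CPM in uninjured replicate 2, and 71.0% of its UMIs in members came from 1 nucleus. At day 5 alone, 21 of 10401 genes (0.202%) were at least 4-fold higher and 125 (1.20%) at least 4-fold lower. Rspo2, a secreted activator of Wnt signalling, was at 1100.2 against 210 CPM there, found in 40 of 100 members and 110 of 863 other stromal nuclei. Prg4, or lubricin, a lubricant of joints and tendon sheaths, was at 54.9 against 10.2 CPM at day 5, and at 333 against 265 CPM in uninjured replicate 2. Chad was among the tendon markers set beforehand, and the other genes named here were chosen after their values were seen. With 1 library each they have no test.

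Cartilage-gene nuclei, with at least 5 UMIs of the cartilage genes within the same limits on immune, endothelial and muscle genes, offered a further comparison at days 5 and 7, as a description. They numbered 263 and 237 in these libraries. Col11a1 was at 6944 and 8658 CPM there, Comp at 925 and 1279 and P3h2 at 438 and 565, all above the tendon-like nuclei. Abi3bp was at 457 and 282 CPM, Sema3a at 57.7 and 15.4, Dgkb at 28.0 and 1.54 and Frem1 at 2.69 and 1.54, all below the tendon-like nuclei. These 7 genes were chosen after their values were seen, and the differences have no test.

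The levels of the named genes are also given by the number of rule UMIs per nucleus, as a description: the axis is the rule's own count, and the genes were chosen on the same nuclei, so the ends of each series are set in advance. Only eligible nuclei that met the collagen limit of the comparator are counted, which left out some members in uninjured replicate 2. At day 5, the summed level of the 12 named higher genes was 638 CPM in nuclei with 0 rule UMIs, 697 with 1, 924 with 2 or 3, 1172 with 4 to 7 and 2807 with 8 or more. Classes of 4 and more UMIs also held non-members with UMIs of 1 rule gene only. At day 7 it was 722, 721, 851, 1991 and 4363 CPM, and in uninjured replicate 2 it was 1289, 2617, 4558, 4954 and 4476 CPM. In day 3 replicate 2 it was 561, 213, 806, 683 and 2137 CPM, with no steady order below 8 UMIs. The 12 named lower genes summed to 922, 564, 410, 229 and 132 CPM at day 5 and to 3333, 4196, 4051, 2986 and 838 CPM in uninjured replicate 2. In day 3 replicate 2 they fell at each class, at 1626, 655, 379, 187 and 84.6 CPM. At day 7 they were at 567, 406, 524, 115 and 557 CPM, so the 4 nuclei with 8 or more UMIs were again near the level with 0, on 6 UMIs. Only the day 5 series thus rose or fell at each class in both sets. Median depth also changed over the classes, from 2511.5 to 6593 UMIs at day 5.

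**Figure D4:**
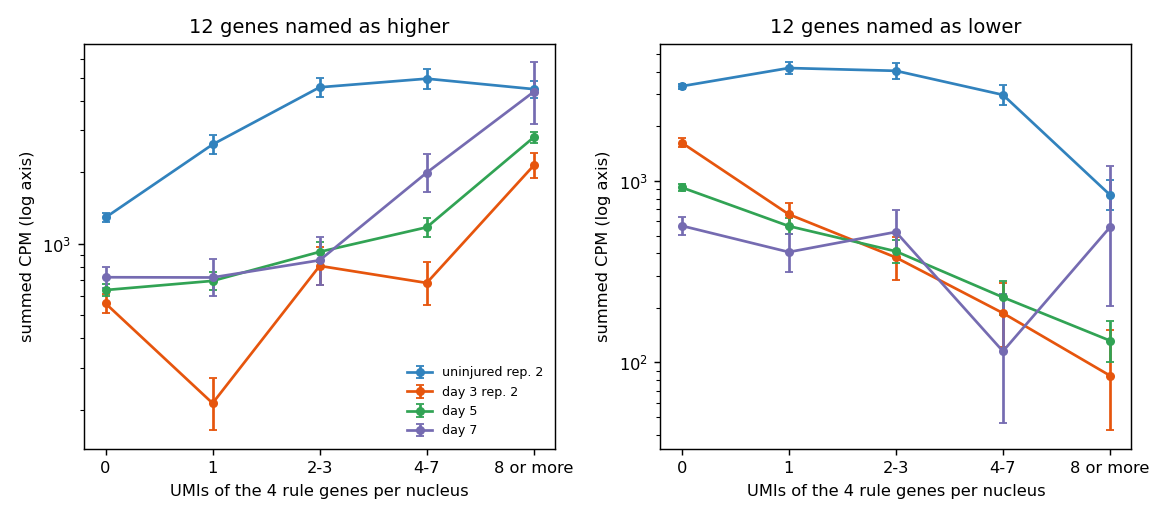
Summed CPM, on a log axis, of the 12 named higher and the 12 named lower genes against the UMIs of the 4 rule genes per nucleus, by library, with 95% counting intervals. At day 5 the named higher genes run from 638 CPM at 0 UMIs to 2807 CPM at 8 or more, while the named lower genes at day 7 go from 567 CPM to 557 CPM.

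At day 5, the members were set side by side by Tnmd, as a description: 48 nuclei had a Tnmd UMI (median 5403.5 UMIs) and 52 had none (median 6799 UMIs). Tnmd is a gene of the rule, so the members without it had to enter through the other 3 genes, and all nuclei came from 1 library, so the values have no replicate and no test. Of 3602 genes with at least 20 UMIs in 1 of the sums, 360 (9.99%) had a ratio whose conditional exact 95% interval, which covers counting error only, lay above 1, and 398 had one that lay below 1.

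Of the 12 named higher genes, 9 had an interval above 1 and the other 3 had one that held 1. Sema3a was at 815 CPM with Tnmd and 217 without (ratio 3.75, 2.89 to 4.92), Cacnb2 at 829 and 254, Dgkb at 564 and 180 and Ccser1 at 554 and 197. The ratios of Kctd16 (0.910, 0.447 to 1.81), Adam23 (1.22, 0.759 to 1.96) and Itga8 (1.67, 0.952 to 2.96) held 1, as did that of Eya2, another called gene (0.882, 0.646 to 1.20).

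Members were also set side by side over time, where 2 libraries shared a software version. No test was possible, since each time point then had 1 library with at least 10 members. Between uninjured replicate 2 (26 members) and day 3 replicate 2 (17 members), 2769 genes had at least 20 UMIs in the higher of the 2 sums, and 163 of them (5.89%) were at least 4-fold higher and 194 (7.01%) at least 4-fold lower at day 3. The same limits in the other stromal nuclei gave 624 of 9856 higher (6.33%) and 549 lower (5.57%). Sums under 3 UMIs were set to 3, a floor, before each fold. The day 3 sums held 194934 UMIs in members and 1291217 in the other stromal nuclei. The limit and the floor thus stood for unlike levels, and the percentages are not comparable between the populations. Several of the largest falls in members rested on single uninjured nuclei. For each gene, 1 nucleus held 100% of the UMIs of Rtl4, 98.7% of Trpc5, 98.6% of Grm7 and 95.8% of Kcnip1, but 27.4% of Mylk. Among the rises, 1 nucleus held 69.9% of the UMIs of Has2 and 14.9% of those of Adam12. Xist, transcribed from the inactive X chromosome of female cells, was at 0 CPM in the uninjured members and 1164 at day 3, and at 1.24 and 1577 CPM in the other stromal nuclei. The Y-linked genes went the other way in the other stromal nuclei, with Uty at 297 CPM in uninjured replicate 2 and 0.774 at day 3, Kdm5d at 98.3 and 1.55, and Ddx3y and Eif2s3y at 89.1 and 96.5 CPM against 0. Both pools thus held RNA that was nearly all of 1 sex, male in the uninjured and female in the day 3 library, and sex, pool and time cannot be told apart in this pair.

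Of the 17 genes listed for injury-induced fibrogenic cells, 16 had been tested between members and other stromal nuclei, and 0 passed (4 at an unadjusted p under 0.05, median log2 difference 0.19). Between uninjured replicate 2 and day 3 replicate 2, 15 of the 17 had enough UMIs in members (at least 20 in the higher of both sums), 6 were at least 4-fold higher and 1 at least 4-fold lower at day 3, and the median log2 ratio was 1.55 against 0.12 over all 2769 genes. Postn, which encodes periostin, was at 109 CPM in the uninjured and 2606 in the day 3 members, a ratio of 23.9 (15.3 to 39.4, counting error only), and it was found in 17 of 17 day 3 members. In the other stromal nuclei Postn was 8.34-fold higher (7.14 to 9.81). Adam12, a metalloprotease, was at 49.1 and 1760 CPM in members, a ratio of 35.8 (18.7 to 79.1), against 4.50 (4.06 to 4.99) in the other stromal nuclei. Runx1 was at 431 and 2585 CPM, Fn1 at 426 and 3016, Col3a1 at 780 and 4130 and Ltbp2 at 16.4 and 426. Asporin (Aspn) was at 224 and 857 CPM in members, a ratio of 3.83 (2.71 to 5.53), and at 307 and 321 CPM in the other stromal nuclei. Col14a1 likewise was at 16.4 and 554 CPM in members, while in the other stromal nuclei it was at 366 and 324. Members and other stromal nuclei thus both showed higher Postn, Adam12 and Runx1 at day 3, and Aspn and Col14a1 differed in the members alone by over 3-fold. Whether the populations differ in these responses was not tested.

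Of the 15 small leucine-rich proteoglycans, 8 had enough UMIs in members, and 0 were at least 4-fold higher and 4 at least 4-fold lower at day 3 (median log2 ratio -1.91). Of the 27 tendon matrix genes, 21 had enough UMIs, 5 were at least 4-fold higher and 3 at least 4-fold lower (median 1.09). Dcn was at 3016 CPM in the uninjured and 359 in the day 3 members, a ratio of 0.119 (0.0915 to 0.153), and at 1593 and 342 CPM in the other stromal nuclei. Igfbp5, an insulin-like growth factor binding protein, was at 644 and 10.3 CPM in members, found in 14 of the 26 uninjured and 2 of the 17 day 3 members. Tnxb, a matrix protein that binds collagen, was at 382 and 5.13 CPM, with 44.3% of its uninjured UMIs from 1 nucleus. Prelp, a leucine-rich proteoglycan, was at 164 and 20.5 CPM. Chad, a cartilage and tendon matrix protein, was at 142 and 0 CPM, and it was at 6.80 and 0.775 CPM in the other stromal nuclei. Mylk, a kinase of smooth muscle contraction, was at 676 and 5.13 CPM in members. Dcn, Igfbp5, Tnxb and Mylk were also lower at day 3 in the other stromal nuclei.

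Between day 5 (100 members) and day 7 (17 members), 5014 genes had at least 20 UMIs in 1 of the sums, and 12 (0.239%) were at least 4-fold higher and 13 (0.259%) at least 4-fold lower at day 7. In the other stromal nuclei these were 28 (0.269%) and 207 (1.99%) of 10414. The day 7 sums held 57652 UMIs in members and 788586 in the other stromal nuclei. The limit of 20 UMIs and the floor of 3 thus stood for unlike levels, and the percentages are not comparable between the populations. Of the 27 tendon matrix genes, 21 had enough UMIs in members, 0 were at least 4-fold higher and 1 at least 4-fold lower at day 7, and 18 had a ratio under 1 (median log2 ratio -0.69 against 0.15 over all 5014 genes). In the day 7 members the floor of 3 UMIs was 52.0 CPM, which can raise the ratios of sparse genes. The median over all genes is thus no like background for more abundant genes. Of the 17 injury-induced fibrogenic genes, 16 had enough UMIs, 3 were at least 4-fold lower and 15 had a ratio under 1. Postn was at 3531 and 763 CPM, a ratio of 0.216 (0.157 to 0.291), Tnc at 1385 and 312, Col8a1 at 2066 and 468 and Cthrc1 at 494 and 121. In the other stromal nuclei Postn was at 2843 and 1315 CPM, Tnc at 1718 and 465, Col8a1 at 2125 and 805 and Cthrc1 at 326 and 105. Bmp5 was at 368 and 69.4 CPM in members, and Bmper, a regulator of BMP signalling, at 375 and 69.4. Signs of RNA quality moved with this pair. Gm42418, a transcript that overlaps ribosomal RNA, was at 1631 CPM in the day 5 and 38646 CPM in the day 7 members, a ratio of 23.7 (22.0 to 25.5), and at 2345 and 68845 CPM in the other stromal nuclei. AY036118 was 30.2-fold higher in members at day 7 (14.7 to 66.8). Actb, or beta-actin, had 168 UMIs in the day 5 and 0 in the day 7 members, and was at 320 and 35.5 CPM in the other stromal nuclei. Lars2 was at 100.3 and 520.4 CPM in members. Median depth per member was lower at day 7 (3421 UMIs) than at day 5 (6277.5 UMIs), and the part of RNA quality and depth in these differences was not tested.

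**Figure D5:**
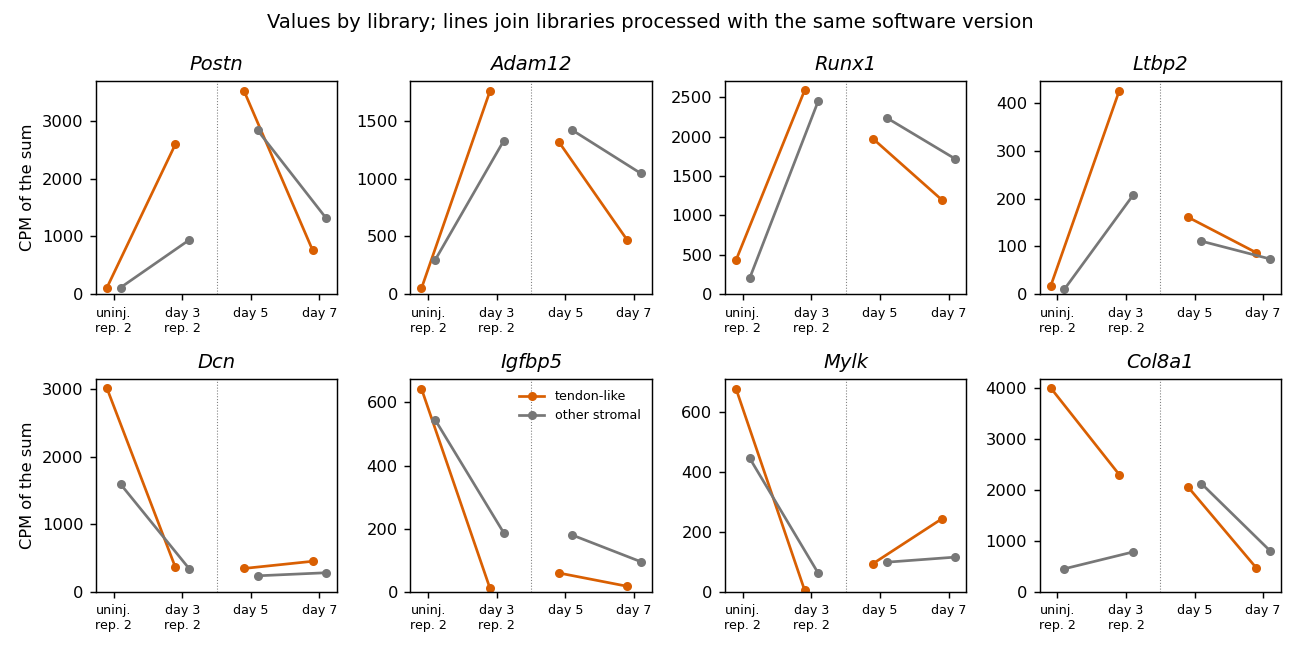
Levels in CPM of 8 genes in tendon-like and other stromal nuclei of uninjured replicate 2, day 3 replicate 2, day 5 and day 7, with 1 value per library and no error bars. Postn in members was 109, 2606, 3531 and 763 CPM, and Dcn was 3016, 359, 345 and 451 CPM. Lines join libraries processed with the same software version.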

How the data were processed

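Nuclei from periosteum and callus were sequenced with the 10x Genomics 3′ chemistry. Each library came as 1 matrix of UMI counts by gene and barcode, not normalized, which the authors deposited after counting exonic and intronic reads with Cell Ranger. The header of each matrix gives the version, 6.0.0 for uninjured replicate 1, day 5 and day 7 and 7.1.0 for the other libraries. The processing notes name mm10, and one protocol names a human reference, but the gene identifiers are of mouse. Only the 30406 genes that all annotations shared were used, and they held at least 98.9% of the UMIs of each. No further per-nucleus normalization was applied. CPM are UMIs of a gene per 1000000 UMIs of the summed nuclei.

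The rule for members, the gene lists and the comparator were chosen with earlier results of these data known. Barcodes numbered 13551, with 55293921 UMIs, and 18 barcode sequences occurred in more than 1 library, 1 of them in a member. Scrublet (in scanpy 1.11.5, expected rate 6%) marked 1 member as a doublet, and doublets were kept. Per-library sums were tested with edgeR 4.0.16 (filterByExpr, TMM, quasi-likelihood F test, R 4.3.3), with library as a block, adjusted with the Benjamini-Hochberg method over 8079 genes. On simulated counts for this comparison, with 200 genes changed by 2 on the log2 scale among 7731 tested, 175 of 181 changed genes tested were called (96.7%) and 8 unchanged genes. The simulation gave every gene the same dispersion (0.0449) and the same difference in every library. It held no gene carried by 1 nucleus, so these shares do not measure the error rates in the real data. Named genes were the 12 largest called differences in each direction with at least 50 CPM in the higher population and 1 direction in every library; 37 higher and 29 lower genes met this, and other genes are named from the lists or were chosen after their values were seen. Time points are compared as values because uninjured replicate 1 had 0 members and day 3 replicate 1 had 4. For counts of 4-fold genes and medians over time, sums under 3 UMIs were first set to a floor of 3. Poisson, conditional exact and Clopper-Pearson 95% intervals cover counting error only. Nothing in the labels says that replicate libraries came from separate mice. The test held 1 library each of uninjured, day 3, day 5 and day 7, and no replicate pair. Its p-values thus measure how the difference between members and comparator varied over these libraries, not over mice. Time, pool and technical differences cannot be told apart in that spread. Alternatives were DESeq2 1.42.0, other filters, other thresholds of the rule, other comparators and each library left out.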

Additional observations from a re-analysis of the deposited data

Results flagged for a closer look

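Gm42418, a transcript that overlaps ribosomal RNA, was higher in tendon-like than in other stromal nuclei of uninjured replicate 2 (13565 against 12010 CPM, a ratio of 1.13) and lower in the 3 fractured libraries tested, with ratios of 0.615 in day 3 replicate 2, 0.696 at day 5 and 0.561 at day 7. The uninjured and the fractured libraries thus lay on opposite sides of 1. This difference was not tested, since 1 uninjured library held members. In edgeR's test over the 4 libraries the log2 difference of Gm42418 was -0.47 (adjusted p = 0.77).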

How the results depend on the processing

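Counts of genes higher and lower in tendon-like nuclei, 45 and 38 by edgeR's test, were 51 and 26 with DESeq2, 135 and 266 with no filter on low counts, 0 and 0 with no library block, 70 and 88 with at least 6 UMIs of the rule genes, 38 and 44 with no upper limit on genes, 48 and 37 without doublets, 31 and 24 against depth-matched nuclei and 89 and 143 against all other eligible nuclei. Added after seeing the data, they were 53 and 29 without other cell types' markers in the comparator, 58 and 73 with day 3 replicate 1 and 39 and 67 with Tnmd required. Leaving out 1 library gave 9 to 78 higher and 13 to 79 lower genes. Of the 83 called genes, 66 to 83 could be tested under each of these settings, and 0 of those tested changed sign. Tnc, not called, was at -0.02 and at -0.29 without uninjured replicate 2, 0.0012 without day 3 replicate 2, 0.067 without day 5, 0.16 without day 7, 0.29 with at least 6 UMIs and 0.13 against all other eligible nuclei. With Tnmd required Tnc was at -0.84, the lowest value of the settings, and was not called there either. The day 3 minus uninjured difference in the equal-depth share was -0.104 percentage points (-1.53 to 1.32 with 1 library left out). In the summed level of the rule genes it was 177 CPM (92.8 to 262), and 20.3 CPM over all nuclei past the barcode filter; uninjured replicate 1 was counted with another software version. The causes were not tested.

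No paired analysis was possible because the labels carry no replicate numbers for the time points (1 and 2 were given in accession order and only name libraries). Members and comparator of a library were paired by the library block. The planned tests of day 3 against uninjured, of fractured against uninjured and of the difference in the day 3 response, with their alternatives, were not run, since fewer than 2 uninjured libraries held 10 members. In the 17 members of day 7, 1 UMI amounted to 17.3 CPM, as for Cilp.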

Other observations

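Between the day 5 members with and without Tnmd (48 and 52 nuclei of 1 library, no replicate), other genes, chosen after their values were seen, lay on either side. Bmper was at 81.1 CPM with Tnmd and 609 without (ratio 0.133, 0.0827 to 0.205). Of the hedgehog pathway, the receptor and target Ptch1 was at 52.9 and 217 CPM, while the target Gli1 had 9 UMIs with Tnmd and 1 without (ratio 11.3, 1.56 to 494). Tgfb2 was at 289 and 133 CPM and Tgfbr1 at 205 and 79.0. Of the bone genes, Ibsp was at 7.06 and 149 CPM, with 70.9% of its UMIs over all day 5 members from 1 nucleus, while Alpl was at 77.6 and 104 CPM (ratio 0.744, 0.418 to 1.29).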
